A study of Homo sapiens with 14 samples.

Results

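Nascent transcription after 3 h of MS023 was compared with that of untreated A549 cells, a human lung adenocarcinoma line. The comparison used 4 of the 14 libraries of a precision run-on sequencing (PRO-seq) series: both libraries of cells given 1 µM MS023 for 3 h and both libraries of untreated cells. All 4 carry the same 0.01% DMSO, and the untreated cells bear a 15 min label. No untreated 3 h library enters the comparison, so an effect of MS023 and an effect of 3 h in culture cannot be told apart in any value below. Libraries of cells given 1 µM MS023 for 15 min (n = 2) and 1 µM GSK591 for 3 h (n = 2), in the same DMSO, are set beside the results. All 14 libraries of 7 groups entered the fit that estimates the spread between libraries. The remaining groups were given GSK591 for 15 min, or either inhibitor with 100 nM dexamethasone for 15 min.

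MS023 inhibits the type I protein arginine methyltransferases, which place asymmetric dimethyl marks on arginines of histones and of many RNA-binding proteins. PRMT1 makes most of these marks, and CARM1, PRMT3 and PRMT6 belong to the same class. GSK591 targets PRMT5, which makes most symmetric dimethyl marks. PRO-seq sequences RNA that engaged polymerases extend with labelled nucleotides in permeabilized cells, so it reads polymerases at work on a gene and not the amount of finished RNA. A microRNA gene is therefore measured here by transcription across its locus, and mature microRNAs are not.

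Total counts were 9606938 and 9343048 in the untreated libraries and 9276517 and 7316486 after 3 h of MS023, and mitochondrial genes took between 50.5% and 54% of them. Markers of A549 and epithelial cells were present: KRT8 had 2343 to 2901 counts and KRT18 1286 to 1391. EPCAM and CDH1 were low at 16 to 28 counts. Summed over 11 such markers the counts ran from 11445 to 14018, and 1 of them (FOXA2) differed between the groups. Of 15 markers of other cell types, CD3E, HBB and INS had no count in any of the 4 libraries, and 11 (these 3 included) had at most 6 counts in each. The others were SFTPB (97 to 125 counts), COL1A1 (40 to 62), HBA1 (29 to 53) and SFTPC (13 to 34). SFTPB, COL1A1 and HBA1 thus stood above EPCAM and CDH1. The sum over the 15 ran from 190 to 271 counts. Of the 4 that could be tested 0 differed. Levels are CPM, counts scaled to a common library size by TMM (trimmed mean of M values). No label says that replicates came from separate cultures, so p-values measure the spread between replicate libraries, estimated over all 14, which may be technical. The 2 MS023 3 h libraries differed more from each other than the 2 untreated ones. Their chi-square per degree of freedom was 6.05, against 2.15 for the untreated libraries.

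The 4 mature microRNAs whose sequences follow come from genes, or for miR-663a from a host gene, that rose at 3 h. They are shown because large rises lay at microRNA genes of guanine- and cytosine-rich loci. The capitals mark the seed, bases 2 to 8 from the 5′ end, and the sequences are those of RefSeq (GRCh38.p14). Their seeds differ from one another, and guanine or cytosine makes up 80.0% to 91.3% of each.
hsa-miR-3648: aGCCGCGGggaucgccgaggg
hsa-miR-6724-5p: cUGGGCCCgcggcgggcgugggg
hsa-miR-663a: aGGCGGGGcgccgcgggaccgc
hsa-miR-638: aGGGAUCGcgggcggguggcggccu

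After 3 h of MS023, microRNA genes of the ribosomal DNA repeats, FGF18, several regulators of transcription and members of the p53, heat shock and oxidative stress programmes were transcribed more than in untreated cells. JUN, NR4A1, NFKB2, TGFBI and some ribosomal protein genes were transcribed less. Of 21910 genes tested, 1672 (7.63%) passed edgeR's quasi-likelihood test at a Benjamini-Hochberg adjusted p under 0.05, with 1184 (5.4%) higher and 488 (2.23%) lower. The rises were larger than the falls. Among the genes called higher the median log2 fold change was 0.70 and 289 exceeded 2-fold, while among those called lower the median was -0.52 and 61 exceeded 2-fold. The median over all genes tested was -0.01. In the plot of fold change against level, MIR6724-1 and MIR3648-1, microRNA genes of the ribosomal DNA repeats, stand apart at unlike levels, while the median over all 130 microRNA genes tested was 0.01.

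**Figure D1:**
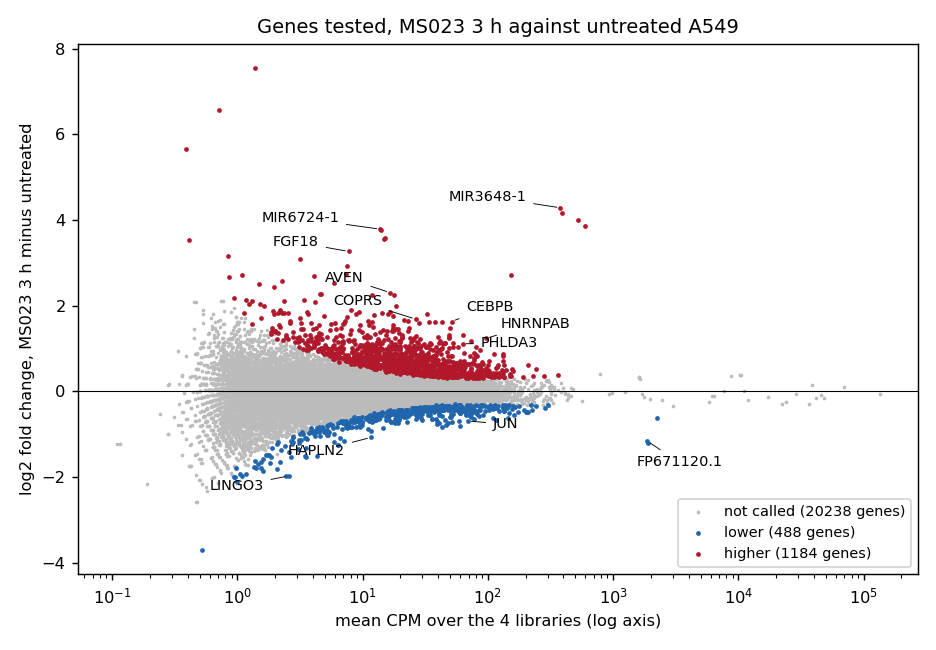
Log2 fold change (MS023 3 h minus untreated) against mean CPM over the 4 libraries on a log axis, 1 point per gene tested, with 1184 genes called higher in red, 488 called lower in blue and the others in grey. The 3 highest points have no count in untreated cells, so their fitted values depend on the prior count and are no measure of size.

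With DESeq2 in place of edgeR, 908 genes were called, 726 higher and 182 lower. Scaling by library size alone gave 1001 genes, of which 84.9% were higher against 70.8% in the main test, and scaling by nuclear counts gave 1571 with 60.5% higher. Leaving out 1 library gave 871 genes without MS023 3 h replicate 1, 901 without untreated replicate 1 and 834 without untreated replicate 2. In all, 460 of the higher and 51 of the lower genes kept their call whichever of the 4 libraries was left out. Many genes share exon positions with another annotated gene, 515 of those called higher and 244 of those called lower, and their reads cannot be assigned with certainty. This holds for 53 of 138 genes followed by name below. Among them are HNRNPAB, SMURF2, YAP1, PHLDA3, UBTF, NR4A1, FKBP4, RPS23, RPL13A, RPL32 and RPL10. Protein-coding genes made up 1025 of the genes called higher and 355 of those called lower. These are 7.14% and 2.47% of the 14351 protein-coding genes tested. Those shares are the nearer background for the lists of protein-coding genes below, which are set beside the shares over all genes. Of 130 microRNA genes tested, 14 were called, all higher, and of 23 ribosomal RNA genes 12 were called, all higher, beside 5.4% of all genes. Those 12 are 5S genes of 1 cluster, and the 14 include copies of ribosomal DNA microRNA genes. Near-identical copies are not separate evidence, so these shares do not compare evenly with the 5.4%. Long noncoding genes were split, with 91 (2.03%) higher and 83 (1.85%) lower of 4491 tested, beside 5.4% and 2.23% of all genes.

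Ribosomal DNA repeats hold the genes that RNA polymerase I transcribes into the 45S precursor, from which the 18S, 5.8S and 28S ribosomal RNAs are cut. The microRNA genes annotated in and beside the precursor gave the largest rises once genes whose mean lay under 2 CPM were set aside. MIR3648-1 (chromosome 21, 8208473 to 8208652, plus strand, 1 exon) had 34.4 and 39.6 CPM in untreated libraries and 781 and 661 CPM after 3 h of MS023. Both MS023 libraries lie far above both untreated ones, a log2 fold change of 4.28 ± 0.34 (SE; edgeR adjusted p 8.3e-12). MIR3687-1 (8208844 to 8208904, plus strand) stood at 68.4 and 84.5 CPM untreated and at 1343 and 875 CPM after MS023, a log2 fold change of 3.86 ± 0.38. MIR6724-1 (8205315 to 8205406, plus strand) was rare in untreated cells, at 1.18 and 2.52 CPM, and reached 22.1 and 29.5 CPM, a log2 fold change of 3.78 ± 0.28 (adjusted p 1.05e-12).

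The other annotated copies moved alike: MIR3648-2 by 4.17, MIR3687-2 by 4.00 and MIR6724-2, MIR6724-3 and MIR6724-4 by 3.78, 3.57 and 3.59 on the log2 scale. The copies are near-identical, so the repeat from which a read came is uncertain and the copies are not separate evidence. MIR663AHG on chromosome 20 (26186920 to 26251526, minus strand), the host gene of miR-663a, which shares exons with another annotated gene, went from 38.9 and 42.7 CPM to 311 and 222 CPM (log2 fold change 2.71 ± 0.24, adjusted p 5.6e-11). All 9 of these genes kept their call whichever of the 4 libraries was left out.

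Other features of the repeat did not follow. Counted from the start of the RNA45SN2 precursor gene, MIR6724-1 starts at -673 bases, just before it, and MIR3648-1 and MIR3687-1 start 2485 and 2856 bases into it, before the 18S sequence that starts at 3643. RNA5-8SN2, the 5.8S gene at 6584 bases, had 1563 and 1302 CPM untreated and 2122 and 1410 CPM after MS023, with overlapping libraries and a log2 fold change of 0.30 ± 0.17 (adjusted p 0.34). FP671120.3, annotated on the minus strand inside the 18S sequence, had 9522 and 8223 CPM untreated and 14560 and 8537 CPM after MS023 (0.38 ± 0.21, adjusted p 0.34). MS023 3 h replicate 1 decides the sign of both: without it the values were -0.02 and -0.05. FP671120.3 passed the test without replicate 2 (0.73). FP671120.1, a long noncoding gene with 2 exons before and 5 after the precursor, fell from 2582 and 2584 CPM to 1236 and 1069 CPM, a log2 fold change of -1.16 ± 0.16 (adjusted p 1.3e-06). Its near-identical copy FP236383.1 had -1.20 ± 0.16. So the microRNA genes, the 5.8S gene, FP671120.3 and FP671120.1, all annotated in 1 repeat, gave changes of unlike size and sign. The plot of fold change by distance shows this. The repeat from which their reads came is uncertain. Whether reads were counted over exons or over whole genes is not given, and the whole span of FP671120.1 includes the precursor. The strand setting is not given, so whether FP671120.3 reads the 18S strand is unknown. Untreated levels of RNA5-8SN2 and FP671120.3 were far above those of MIR3648-1 (34.4 and 39.6 CPM). Whether all their reads come from engaged polymerases was not tested.

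**Figure D2:**
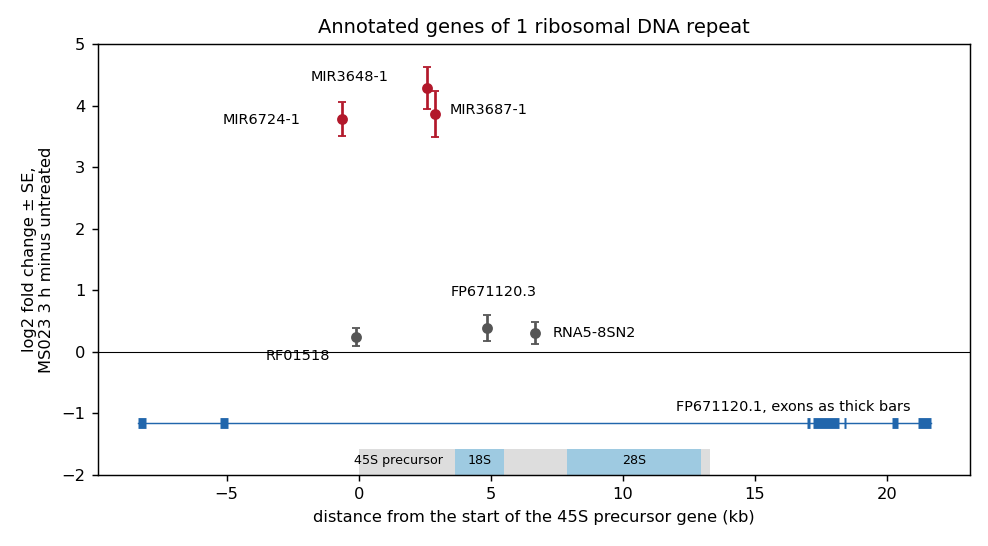
Log2 fold change ± SE (MS023 3 h minus untreated) of the genes annotated in 1 ribosomal DNA repeat, by distance in kb from the start of the 45S precursor gene. The 3 microRNA genes (red) lie between 3.78 and 4.28, RF01518, FP671120.3 and RNA5-8SN2 (grey, not called) between 0.24 and 0.38, and FP671120.1 (blue, exons as thick bars) at -1.16.

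The 5S ribosomal RNA is made by RNA polymerase III from a separate cluster on chromosome 1. Of 16 RNA5S genes tested there, 12 were called higher and their median log2 fold change was 1.15. Summed over the cluster, the level was 32.9 and 44.2 CPM in untreated libraries and 87.1 and 80.5 CPM after 3 h of MS023, with no overlap between the groups. Each gene has few reads and the copies are near-identical: 4 were called without MS023 3 h replicate 1, 10 without replicate 2, 3 without untreated replicate 1 and 8 without untreated replicate 2. Of 4 other noncoding genes of RNA polymerase III that were tested, 0 were called. Of 33 genes for proteins of polymerase I transcription and of the nucleolus, 2 were called higher and 1 lower, near the 5.4% and 2.23% over all genes, and the list median was -0.12. Without untreated replicate 1 the counts were 1 and 2, without MS023 3 h replicate 2 they were 2 and 0, without untreated replicate 2 they were 1 and 0, and without MS023 3 h replicate 1 they were 1 and 1. UBTF, which opens ribosomal DNA for polymerase I, rose from 104 and 112 CPM to 160 and 144 CPM (0.50 ± 0.10, adjusted p 5.3e-04) and kept its call in all 4 leave-one-out runs. POLR1E, a polymerase I subunit (0.51), and TCOF1, a nucleolar cofactor of ribosomal DNA transcription (-0.34), did not.

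The other 6 microRNA genes called higher were named after their values were seen. MIR638 (chromosome 19, 10718404 to 10718503) rose from 0.43 and 0.44 CPM to 2.83 and 2.22 CPM, a log2 fold change of 2.52 ± 0.58 (edgeR adjusted p 0.0031). MIR212 and MIR4734 rose by 1.83 each, and MIR3178 by 0.65, from 14.1 and 12.4 to 24.2 and 16.8 CPM. MIR3181 and MIR4466 had no count in either untreated library. The mean after MS023 was 4.35-fold above the level of 3 counts per library (0.326 CPM) for MIR3181 and 2.37-fold above it for MIR4466. That level was chosen, so these are not lower bounds, and MIR4466 stood at only 0.44 CPM in MS023 3 h replicate 1. MIR638, MIR212, MIR4734, MIR3178 and MIR4466 each lost their call when 1 or more of the libraries was left out.

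The genes of the methyltransferases themselves were examined next. PRMT1 stood at 94.8 and 94.3 CPM in untreated libraries and 80.7 and 85.9 CPM after 3 h of MS023 (log2 fold change -0.18 ± 0.09, edgeR adjusted p 0.27). CARM1 (-0.11 ± 0.15), PRMT3 (0.02 ± 0.13) and PRMT5 (-0.31 ± 0.16) did not pass either. Of 4 type I genes tested, 0 were called in either direction (5.4% higher and 2.23% lower over all genes), and the list median was -0.05. PRMT6 (chromosome 1, 107056679 to 107067636, plus strand) had too few reads for the expression filter and was left out of the main test. It had 0 and 0 counts in untreated libraries and 5 and 18 counts after 3 h of MS023. Its counts were also 0 in both libraries of MS023 at 15 min and in both of GSK591 at 3 h. Its mean after MS023 was 4.67-fold above the chosen level of 3 counts per library. Without the filter it passed at an edgeR adjusted p of 0.0025, and at 0.043 against GSK591 3 h. This rests on few reads, most of them in replicate 2.

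COPRS, a partner of PRMT5 that binds histone H4, was the 1 called gene among 7 other methyltransferases and their cofactors (5.4% higher and 2.23% lower over all genes). It rose from 11.2 and 13.9 CPM to 34.2 and 47.0 CPM (chromosome 17, 31851864 to 31859337, minus strand; 1.68 ± 0.17, adjusted p 2.3e-09). On the same background, 1 of 15 genes of the methyl donor and polyamine pathways was called. This was MTHFD2, a mitochondrial enzyme of one-carbon metabolism, at -0.57 ± 0.15 (adjusted p 0.011). It lost the call without MS023 3 h replicate 1 (-0.43) and without untreated replicate 2 (-0.45).

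Many substrates of the type I enzymes are RNA-binding proteins with arginine- and glycine-rich (RGG) stretches. Of 38 such genes tested, 3 were called higher and 4 lower (5.4% and 2.23% over all genes), with a median log2 fold change of -0.18. HNRNPAB stood out, from 56.0 and 59.2 CPM to 142 and 129 CPM (1.23 ± 0.11, adjusted p 8.7e-11), and was the 1 member that kept its call in all 4 leave-one-out runs. KHDRBS1, which links signalling to splicing, was at 0.66 ± 0.17, and lost its call without MS023 3 h replicate 1 (0.28) and without untreated replicate 1 (0.59), and PABPN1, a poly(A) tail binding protein, was at 0.38. Among the lower ones were RBM3, a cold-inducible RNA-binding protein (-0.51), HNRNPA1, a splicing repressor (-0.36), and DDX5, an RNA helicase (-0.34). Without MS023 3 h replicate 1 the counts were 2 higher and 0 lower, without replicate 2 they were 2 and 5, without untreated replicate 1 they were 1 and 2, and without untreated replicate 2 they were 2 and 1.

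Lists of splicing and pausing factors held few called genes, on a background of 5.4% higher and 2.23% lower. Of 19 SR proteins and their CLK kinases 1 was called, SRSF9 (0.48), and of 11 Sm core and assembly genes 0 were called. Among 28 genes of P-TEFb and pause control, HEXIM1, which holds P-TEFb inactive, rose by 0.33, CDK13 by 0.34 and NELFB by 0.36, and INTS1 of the Integrator complex fell by 0.32. None of these 5 calls held in every leave-one-out run. For pause control the runs gave 0 higher and 1 lower without MS023 3 h replicate 1, 1 and 0 without replicate 2, and 0 and 0 without either untreated library. Without MS023 3 h replicate 2, 2 genes of the SR list were lower. SRSF9 was at 0.37 without MS023 3 h replicate 1 and at 0.26 without untreated replicate 1.

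The largest protein-coding rises are given for genes whose mean reached 5 CPM and that share no exon with another annotated gene. Among these FGF18, a secreted growth factor, rose most (chromosome 5, 171419656 to 171457623, plus strand). It had 1.29 and 1.64 CPM in untreated libraries and 16.5 and 11.6 CPM after MS023, a log2 fold change of 3.26 ± 0.29 (edgeR adjusted p 1.3e-10). GRAMD2A, a GRAM domain protein, rose from 1.61 and 1.75 to 5.67 and 14.4 CPM (2.52 ± 0.33). Its MS023 libraries differ widely, but both lie above the untreated ones. AVEN, an inhibitor of apoptosis, rose from 5.81 and 5.25 to 23.0 and 32.3 CPM (chromosome 15, 33866227 to 34039176, minus strand; 2.30 ± 0.24, adjusted p 3.3e-09).

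UBTD2, a ubiquitin-domain protein, rose by 2.26 ± 0.24, and NEK7, a kinase that acts in mitosis and in the NLRP3 inflammasome, by 1.86 ± 0.22. CRLS1, the mitochondrial cardiolipin synthase, rose from 14.5 and 14.6 to 53.8 and 47.1 CPM (chromosome 20, 6006090 to 6040053, plus strand; 1.80 ± 0.15, adjusted p 1.9e-11). ABCB10, a mitochondrial transporter that acts in haem synthesis, rose by 1.76 ± 0.17, and TMEM117, a membrane protein, by 1.74 ± 0.24. These 8 genes, with COPRS and CDK5R1, are the 10 largest rises of their kind, and all 10 kept their call whichever library was left out.

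The smallest p-values among such genes went to rises with tight replicates. CDK5R1, the activator of the kinase CDK5, had 21 and 21.2 CPM untreated and 59.0 and 71.8 CPM after MS023 (chromosome 17, 32486619 to 32491256, plus strand; 1.62 ± 0.12, adjusted p 9.1e-13). MAML1, a coactivator of Notch target genes, rose from 27.0 and 25.8 to 71.3 and 75.2 CPM (chromosome 5, 179732850 to 179777286, plus strand; 1.47 ± 0.12, adjusted p 5.6e-12). MKNK2, a kinase of the translation factor eIF4E, rose from 28 and 28.4 to 70.3 and 68.7 CPM (chromosome 19, 2037465 to 2051244, minus strand; 1.30 ± 0.10, adjusted p 8.3e-12). In each of these 3 genes the 2 libraries of a group lie close together and the groups are far apart. NOXO1, an organizer of the NADPH oxidase NOX1 that shares exons with another gene and was named after its values were seen, had no count in untreated libraries and 3.16 and 2.36 CPM after MS023. The mean after MS023 is 8.47-fold above the chosen level of 3 counts per library.

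**Figure D3:**
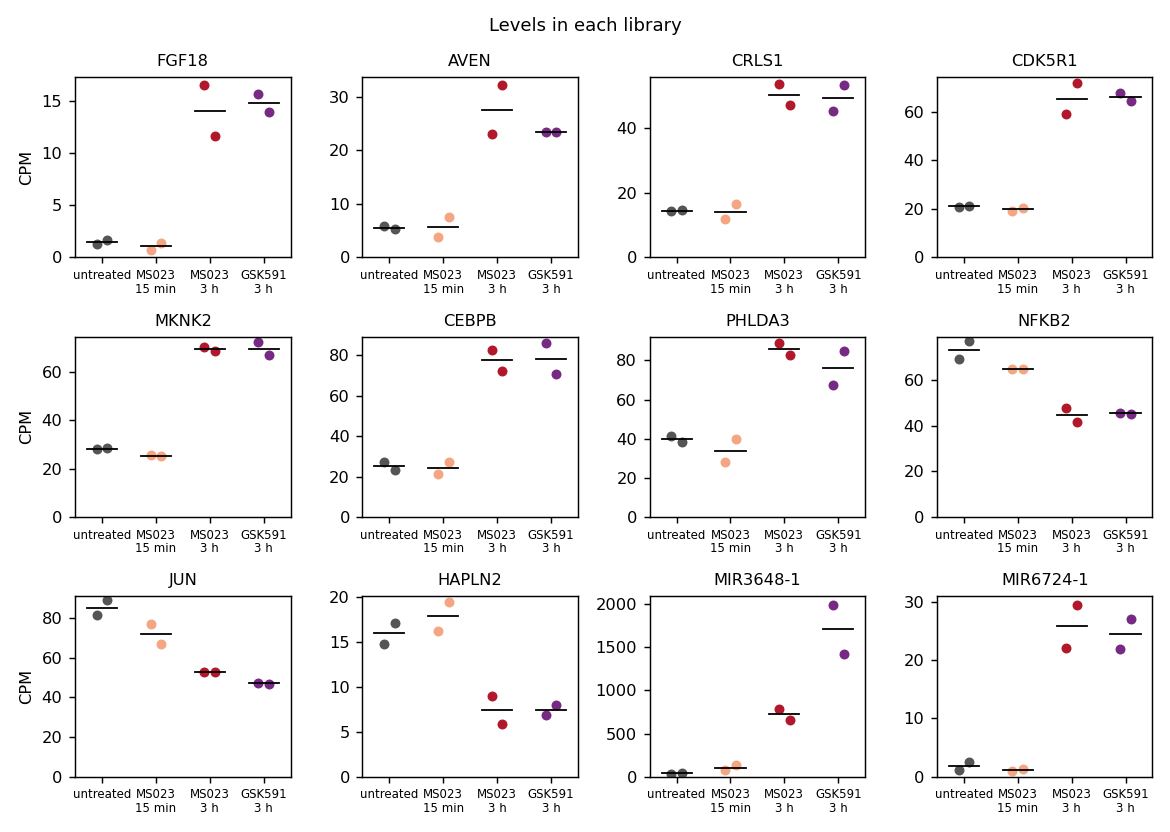
CPM in each library (points) and group mean (bars) of 12 genes in untreated cells, after 15 min and 3 h of MS023 and after 3 h of GSK591, 2 libraries per group. Rises such as MKNK2 (28 and 28.4 to 70.3 and 68.7 CPM) and falls such as NFKB2 (69.4 and 77.3 to 47.9 and 41.8 CPM) separate untreated from MS023 3 h libraries.

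The falls were smaller. Among genes of any type with a mean of at least 2 CPM, the largest were AC023137.1 and LINGO3 at -1.98 each, NLRP9 at -1.82 and AC009093.6 at -1.66. LINGO3, a leucine-rich repeat membrane protein, went from 4.09 and 4.16 to 1.09 and 0.97 CPM. Among protein-coding genes with no shared exon and a mean of at least 5 CPM, KCNK3, a background potassium channel, had the largest fall, from 12.1 and 7.66 to 5.12 and 3.60 CPM (-1.15 ± 0.25, edgeR adjusted p 0.0018). HAPLN2, a link protein of the extracellular matrix, fell from 14.7 and 17.1 to 8.94 and 5.82 CPM (chromosome 1, 156619294 to 156625725, plus strand; -1.08 ± 0.18, adjusted p 5.1e-05). SGPP2, a phosphatase of sphingosine 1-phosphate, fell from 16.1 and 14.7 to 8.18 and 8.04 CPM (-0.92 ± 0.16, adjusted p 8.0e-05). LHFPL4 (-0.99), which acts at inhibitory synapses, the histamine receptor HRH3 (-0.98), GOLGA6L4 (-0.84), ZNF350 (-0.84), GALNT18 (-0.83), a glycosyltransferase, and the cytokine IL18 (-0.71) also fell.

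Of these falls, HAPLN2, SGPP2, AC023137.1, LINGO3 and NLRP9 kept their call in all 4 leave-one-out runs. KCNK3 lost it without MS023 3 h replicate 2 (-0.93) and without untreated replicate 1 (-0.78), and LHFPL4 without MS023 3 h replicate 2 (-0.72). HRH3 lost it without MS023 3 h replicate 2 (-0.71) and untreated replicate 2 (-0.88). ZNF350 and GALNT18 lost it without MS023 3 h replicate 1 (-0.56 and -0.59) and untreated replicate 2 (-0.78 and -0.63). AC009093.6 lost it without either MS023 3 h library (-1.76 and -1.58) and without untreated replicate 2 (-1.41), and GOLGA6L4 and IL18 lost it in each of the 4 runs, where their values ran from -0.88 to -0.77 and from -0.89 to -0.52.

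Falls with some of the smallest p-values follow. JUN, a subunit of the AP-1 transcription factor, went from 81.4 and 88.8 to 52.6 and 52.6 CPM (chromosome 1, 58780788 to 58784327, minus strand; -0.69 ± 0.10, adjusted p 3.1e-06). TGFBI, a matrix protein induced by TGF-beta, went from 130 and 134 to 86.1 and 85.3 CPM (-0.62 ± 0.09, adjusted p 6.0e-06). NFKB2, the p100 and p52 subunit of NF-kappa-B, went from 69.4 and 77.3 to 47.9 and 41.8 CPM (-0.70 ± 0.11, adjusted p 7.6e-06). In each of these 3 genes the groups do not overlap and the call held in all leave-one-out runs.

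C/EBP transcription factors drive differentiation and acute-phase genes. Of the 5 genes CEBPA, CEBPB, CEBPD, CEBPG and CEBPZ, 3 were called higher, where 5.4% of all genes were. These 5 were grouped after the values were known. CEBPB went from 27.0 and 23.21 to 82.8 and 72.2 CPM (1.63 ± 0.14, adjusted p 3.9e-11), CEBPA from 46.1 and 43.1 to 107 and 94.6 CPM (1.18 ± 0.13) and CEBPD from 51.6 and 53.4 to 113 and 102 CPM (1.03 ± 0.11). CEBPA and CEBPB share exons with other annotated genes and CEBPD does not, and all 3 kept their call in every leave-one-out run. CEBPG (0.20 ± 0.11, adjusted p 0.31) and CEBPZ (-0.27 ± 0.15, adjusted p 0.34) did not pass. Of 17 KLF and SP factors 4 rose and 2 fell (5.4% and 2.23% over all genes). KLF13 (0.96 ± 0.11), which binds GC-rich promoters, and KLF15 (1.12 ± 0.18), a metabolic regulator, kept their call in each run. KLF5 (0.57), KLF4 (0.62), KLF6 (-0.47) and KLF10 (-0.56) did not: without MS023 3 h replicate 1 the counts were 2 higher and 1 lower, without replicate 2 they were 4 and 1, and without untreated replicate 2 they were 3 and 0. Of 19 lung epithelial lineage factors, on the same background, CEBPA, KLF5 and FOXA2 (0.38) were called higher and 0 lower. That count was 1 without MS023 3 h replicate 1 and 2 without either untreated library.

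Among 30 targets of the tumour suppressor p53, 11 were called higher and 0 lower, where 5.4% and 2.23% of all genes were, and the median log2 fold change was 0.33 against -0.01 over all genes. PHLDA3, which restrains AKT signalling, went from 41.4 and 38.3 to 89.1 and 82.7 CPM (1.11 ± 0.12, adjusted p 1.0e-08). BTG2, an antiproliferative factor, rose by 0.95 ± 0.14, SESN2, a stress sensor of the mTORC1 pathway, by 0.88 ± 0.13, and FDXR, a mitochondrial reductase, by 0.75 ± 0.11. CDKN1A, the cell cycle inhibitor p21, was at 0.64 ± 0.14 and MDM2, the ubiquitin ligase of p53, at 0.35 ± 0.10. PHLDA3, BTG2, SESN2 and FDXR kept their call in each leave-one-out run. The number called was 6 without MS023 3 h replicate 1, 7 without replicate 2, and 6 without either untreated library. The list was known to be higher from earlier results of these data and is no independent evidence of its direction.

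Of 24 heat shock chaperones, which help proteins fold under stress, 8 were called higher and 0 lower (5.4% and 2.23% over all genes), with a median of 0.24. FKBP4, a cochaperone of HSP90, went from 26.4 and 30.0 to 45.4 and 47.4 CPM (0.72 ± 0.11, adjusted p 1.2e-05). HSPH1, an HSP70 exchange factor, rose by 0.80 ± 0.13, STIP1, which bridges HSP70 and HSP90, by 0.64 ± 0.10, and BAG3, an HSP70 cochaperone of selective autophagy, by 0.78 ± 0.13. The count was 5 without MS023 3 h replicate 1, and the 4 genes named kept their call in each run.

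Of 30 targets of NRF2, the regulator of the antioxidant response, 7 were called higher and 0 lower, beside 5.4% and 2.23% of all genes, with a median of 0.11. SRXN1, which restores oxidized peroxiredoxins, went from 10.4 and 10.2 to 32.2 and 33.4 CPM (1.67 ± 0.16, adjusted p 7.1e-10). EPHX1, an epoxide hydrolase, rose by 0.74 ± 0.12, GCLC, the catalytic subunit that starts glutathione synthesis, by 0.59 ± 0.10, and FTH1, the ferritin heavy chain, by 0.57 ± 0.10. Those 4 share exon positions with other annotated genes. The count was 4 without MS023 3 h replicate 2 and without untreated replicate 2.

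Of 30 genes of cholesterol synthesis and uptake, 5 were called higher and 0 lower, beside 5.4% and 2.23% of all genes, and the median was 0.16. They were MVD (0.60 ± 0.12), an enzyme of the mevalonate pathway, INSIG1 (0.52) and INSIG2 (1.03), which hold SREBP in the endoplasmic reticulum, IDI1 (0.37), an isomerase of the pathway, and SCD (0.32), a fatty acid desaturase. None of these 5 calls held in every leave-one-out run, though each gene stayed above 0. With 1 library left out, MVD ran from 0.45 to 0.73, INSIG1 from 0.39 to 0.68 and INSIG2 from 0.80 to 1.32. IDI1 ran from 0.32 to 0.44 and SCD from 0.25 to 0.42. Such runs have fewer libraries and call fewer genes of any kind. Of 34 genes of the integrated stress response 5 were higher and 1 lower, with a median of -0.02. The higher ones were CEBPB, SESN2, SPRING1 (0.92 ± 0.13), which acts in SREBP processing, GDF15 (0.44), a stress cytokine, and DDIT4 (0.35), an inhibitor of mTORC1, and the lower one was MTHFD2. The higher count was 3 without MS023 3 h replicate 1 and without untreated replicate 2, and 0 genes were lower without untreated replicate 2 and 2 without MS023 3 h replicate 2.

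**Figure D4:**
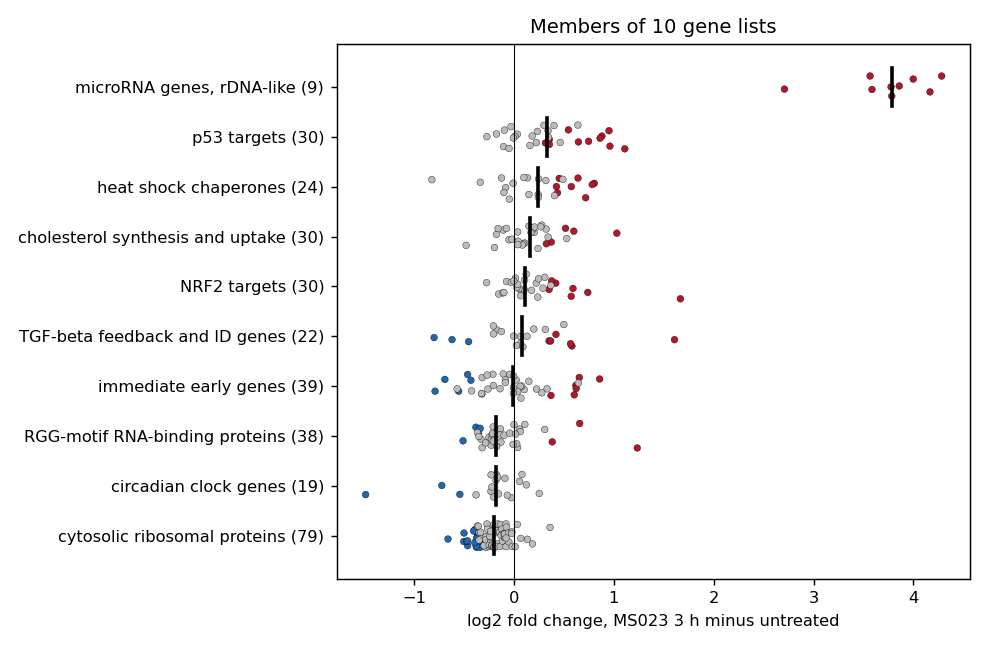
Log2 fold change (MS023 3 h minus untreated) of each tested member of 10 gene lists, with called members in red (higher) or blue (lower), others in grey, list medians as black bars and the number tested in parentheses. Medians run from 3.78 for the microRNA genes and 0.33 for the p53 targets to -0.21 for the cytosolic ribosomal proteins.

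Against 5.4% higher and 2.23% lower over all genes, TGF-beta feedback genes had 6 of 22 called higher and 3 lower. SMURF2, a ubiquitin ligase of SMAD proteins, went from 17.2 and 15.9 to 47.8 and 53.3 CPM (1.61 ± 0.16, adjusted p 7.7e-10), and SMAD7, the inhibitory SMAD, rose by 0.58 ± 0.10. TGFBI, which TGF-beta induces, fell as described. These 3 kept their call in each run, and the higher count was 2 without MS023 3 h replicate 1 and without either untreated library. Of 22 Hippo and adhesion genes, on the same background, 6 were higher and 0 lower. YAP1, the coactivator that the Hippo kinases restrain, went from 16.1 and 18.4 to 43.4 and 37.0 CPM (1.23 ± 0.13, adjusted p 9.9e-09), ACTB rose by 0.53, SRF, which drives actin genes, by 0.65 and TEAD1, the DNA-binding partner of YAP1, by 0.45. That count was 3 without MS023 3 h replicate 1 and without untreated replicate 1, and 4 without untreated replicate 2. Of 17 EGFR ligands and feedback genes 0 were called.

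Of 39 immediate early genes, which cells switch on within minutes of a signal, 6 were called higher and 6 lower (5.4% and 2.23% over all genes), with a median of -0.01. JUND (0.86 ± 0.12), an AP-1 subunit, and IER5 (0.62 ± 0.09), which activates HSF1, rose. NR4A1, an orphan nuclear receptor, fell from 56.0 and 61.8 to 33.9 and 34.1 CPM (-0.79 ± 0.11, adjusted p 9.5e-07), and JUN fell as described. The counts were 4 higher and 3 lower without MS023 3 h replicate 1, 6 and 4 without replicate 2, and 3 and 2 without untreated replicate 2. Of 29 glucocorticoid targets, CEBPB and CEBPD were higher and 5 were lower, among them PER1, ANGPTL4 (-0.57), KLF6 and TSC22D3 (-0.53). The lower count was 3 without MS023 3 h replicate 1 and without untreated replicate 2.

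Of 19 circadian clock genes 0 were higher and 3 lower (5.4% and 2.23% over all genes), with a median of -0.18. All 3 share exon positions with other annotated genes, and among genes sharing no exon 0 clock genes were lower. PER1, a repressor of the clock, went from 26.9 and 29 to 15.6 and 18.4 CPM (-0.72 ± 0.15, adjusted p 9.9e-04), BHLHE40, a clock repressor, from 195 and 189 to 133 and 131 CPM (-0.54 ± 0.10), and BHLHE41 from 2.26 and 2.63 to 0.44 and 1.39 CPM (-1.49 ± 0.46). Only BHLHE40 of the 3 kept its call in each leave-one-out run: without MS023 3 h replicate 1 the count was 1, and without either untreated library it was 2. Of 26 NF-kappa-B and inflammatory genes 1 was higher, NFKBIZ (0.48), and 2 were lower, NFKB2 and the cytokine LIF (-0.45). Without untreated replicate 1 the counts were 0 and 1, without MS023 3 h replicate 1 and without untreated replicate 2 they were 1 and 1, and without MS023 3 h replicate 2 they were 2 and 2. Of 30 interferon-stimulated genes 1 was higher, ISG20, an RNA exonuclease (0.50 ± 0.10).

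Of 79 cytosolic ribosomal protein genes 18 were called lower and 0 higher (2.23% and 5.4% over all genes), with a median of -0.21. RPS23 went from 137 and 147 to 82.2 and 97.5 CPM (-0.66 ± 0.10, adjusted p 5.5e-06) and RPL13A from 150 and 162 to 111 and 116 CPM (-0.47 ± 0.09), and these 2 kept their call in each run. RPL32 (-0.50) and RPL10 (-0.51) did not. The number called lower was 8 without MS023 3 h replicate 1, 13 without replicate 2, 9 without untreated replicate 1 and 3 without untreated replicate 2. It was 5 with library size alone as the scaling and 8 after trends on GC content and length were removed, while the median stayed between -0.25 and -0.16 in the alternatives. Of 23 snoRNA host genes, many of them built like ribosomal protein genes, SNHG3 and SNHG1 were lower (-0.40 each). Those calls held in the run without MS023 3 h replicate 2 and in none of the other 3 runs, where SNHG3 stood at -0.40 to -0.24 and SNHG1 at -0.43 to -0.16.

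Cell cycle lists are read against the 5.4% higher and 2.23% lower over all genes. Of 34 DNA replication genes SLBP, which binds the stem-loop of histone mRNA, rose from 11.2 and 12.3 to 28.1 and 30.6 CPM (1.32 ± 0.18, adjusted p 8.7e-07), and POLE (-0.40), GINS2 (-0.52) and MCM5 (-0.38) fell. None of those 3 falls held in each run, and over the whole list 2 genes were lower without MS023 3 h replicate 1 and without untreated replicate 1, 1 without MS023 3 h replicate 2 and 0 without untreated replicate 2. Of 57 replication-dependent histone genes H1-4 (-0.48 ± 0.10), H1-3 (-0.42) and H1-5 (-0.44), linker histones, were lower. H1-4 alone was called without MS023 3 h replicate 1 and without untreated replicate 2. Of 40 genes of G2 and mitosis UBE2S (0.54) and CCNF (0.41) were higher and 0 lower. CCNF lost its call without untreated replicate 1 (0.40).

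The lists that follow are read against the 5.4% higher and 2.23% lower over all genes. Of 15 genes of the MYC network 2 were higher and 1 lower. MNT, which represses MYC targets, fell by 0.57 ± 0.10, and MXD1, a repressor of the same family (0.53), and MYCL (0.80) were higher. The higher count was 1, 0 and 0 in the runs without MS023 3 h replicate 1, MS023 3 h replicate 2 and untreated replicate 1. Of 33 genes of glycolysis and glycogen PFKP (-0.56 ± 0.10), a phosphofructokinase, and PFKFB4 (-0.52), which sets the level of its activator, were lower, and in every leave-one-out run PFKP alone was called. MALAT1, a nuclear long noncoding RNA, was the 1 gene called among 11 of its kind, from 2538 and 2892 to 1728 and 1804 CPM (-0.62 ± 0.19, adjusted p 0.030). It was not called in any run with 1 library left out (-0.70 to -0.51). Of 410 zinc finger ZNF genes 17 were higher and 7 lower, both below the shares over all genes, and the median of -0.05 was near that of all genes. The smallest p among them belonged to ZNF664 (1.00), ZNF12 (0.90), ZNF318 (1.12) and ZNF768 (0.64). Without 1 library, 7 to 12 were higher and 1 to 2 lower.

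Medians of gene structure are given as a description, with no test, and the quartiles overlap widely. The median span of a protein-coding gene was 27.9 kb (quartiles 10.5 and 68.0 kb) among those higher, 19.8 kb (9.79 and 59.8 kb) among those lower and 31.1 kb among those not called. Untreated levels per kb of exon were higher for genes called lower, with medians of 6.24 CPM per kb against 3.53 for those higher and 2.52 for those not called. Genes with more reads are called more readily, and the part of this in the difference was not tested. Median transcript GC content was 50.9% (quartiles 43.5% and 59.9%) in genes higher, 54.2% (47.5% and 59.3%) in genes lower and 49.5% in genes not called.

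Promoters were read from RefSeq (GRCh38.p14) as the 250 bases before the start of 11356 of the 14351 protein-coding genes tested. Promoters of genes called higher had a median GC content of 70.0%, against 64.8% for both the genes called lower and all genes tested. The GC box GGGCGG, to which SP and KLF factors bind, was present on either strand in 77.7% of 825 promoters of genes called higher, 67.3% of 275 promoters of genes called lower and 66.0% of all. After trends on transcript GC content and length were removed, the shares were 78.0% of 573 and 63.5% of 189 promoters. The AP-1 site TGANTCA went the other way, at 2.18%, 4.73% and 3.9%, and the ETS site CCGGAAG was at 10.5%, 14.2% and 14.9%. The TATA box TATAAA (5.94%, 5.82% and 5.9%), the CCAAT box (35.2%, 33.8% and 34.7%) and the E-box CACGTG (9.21%, 10.9% and 8.66%) were alike across the 3 sets. A GC box is also more likely in any GC-rich sequence, the motifs were not tested, and a match does not show binding.

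Stretches around a GC box are shown for MKNK2, MAML1 and CEBPB, which had some of the smallest p-values, as examples of such promoters. Each is the coding strand from 5′ to 3′, with the box in capitals, before the RefSeq start of the gene (GRCh38.p14). MKNK2 is from chr19:2051274-2051319, minus strand, MAML1 from chr5:179732711-179732756, plus strand, and CEBPB from chr20:50190698-50190743, plus strand.
MKNK2: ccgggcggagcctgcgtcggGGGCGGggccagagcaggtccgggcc
MAML1: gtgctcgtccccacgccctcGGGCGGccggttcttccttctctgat
CEBPB: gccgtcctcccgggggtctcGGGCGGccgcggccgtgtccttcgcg

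The time course was tested directly. Between 15 min and 3 h of MS023, 2640 genes (12%) differed, 1676 higher and 964 lower at 3 h, whereas 15 min of MS023 against untreated cells gave 40 genes (0.183%), 18 higher and 22 lower. Both comparisons share the 15 min libraries. Under scaling by library size alone the balance between the times turned to 778 higher and 1391 lower, under scaling by nuclear counts it was 2454 and 412, and the median of all genes moved to -0.16 (log2) with the former, so directions of small changes between the times depend on the scaling. Values below are on the main scaling. FGF18 had 0.76 and 1.35 CPM at 15 min, overlapping its untreated libraries, and differed from 3 h by 3.80 on the log2 scale (edgeR adjusted p 4.3e-11). MIR6724-1 was at 0.97 and 1.35 CPM at 15 min, a difference of 4.48, and CEBPB at 21.1 and 27.2 CPM, a difference of 1.70. MIR3648-1 lay between its untreated and 3 h levels at 15 min, with 73.7 and 129 CPM, and MIR663AHG with 104 and 131 CPM. Against untreated cells MIR663AHG was already higher at 15 min, by 1.52 (log2, edgeR adjusted p 2.4e-04). So were MIR3687-1 by 1.69 (adjusted p 0.023) and its copy MIR3687-2 by 1.64 (adjusted p 0.026). MIR3648-1, at 1.44, did not pass (adjusted p 0.0503). JUN (76.8 and 66.8 CPM) was at 15 min below its untreated and above its 3 h libraries. BHLHE40 and KCNK3, called against untreated cells, did not pass the test between the times (adjusted p 0.11 and 0.17).

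Some features of the ribosomal DNA repeat were highest at 15 min. FP671120.3 had 25360 and 22130 CPM at 15 min, a log2 fold change of 1.42 ± 0.22 against untreated cells (edgeR adjusted p 2.1e-04), and was lower by -1.04 at 3 h than at 15 min. FP671120.1 had 3422 and 3889 CPM at 15 min, above its untreated libraries, and 1236 and 1069 CPM at 3 h, a difference of -1.67 ± 0.16 (adjusted p 5.6e-10). RNA5-8SN2 had 3074 and 3261 CPM at 15 min and was lower at 3 h by -0.84 (adjusted p 6.3e-04). In the same libraries mitochondrial genes took 39.8% and 44.5% of counts, below the 50.5% and 53.2% of the 3 h libraries, and the part of this in the differences was not tested.

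Between MS023 and GSK591 at 3 h, edgeR called 0 genes (0%) of 21910, with 1319 at an unadjusted p under 0.05 and a smallest adjusted p of 0.08. DESeq2 called 1, and without the count filter 47 passed, PRMT6 among them. The absence of calls does not show that the inhibitors act alike. Both 3 h groups share the time of treatment and the lack of an untreated 3 h control. Levels with GSK591 were close for many named genes: FGF18 at 15.6 and 13.9 CPM, MKNK2 at 72.3 and 67.1 CPM, CDK5R1 at 67.6 and 64.4 CPM and CEBPB at 85.9 and 70.5 CPM. The ribosomal DNA microRNA genes were further apart. MIR3648-1 stood at 1996 and 1423 CPM with GSK591 against 781 and 661 CPM with MS023, a difference of -1.25 ± 0.29 on the log2 scale that did not pass (adjusted p 0.17), though the libraries do not overlap. MIR3687-1 (2629 and 2364 CPM with GSK591) differed by -1.17 and MIR663AHG (614 and 484 CPM) by -1.04, while the MIR6724 genes differed by -0.02 to 0.15. FP671120.1, at 1762 and 1824 CPM with GSK591, had a difference of -0.64 on the log2 scale (MS023 minus GSK591), which did not pass (adjusted p 0.23).

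The authors' deposited table of MS023 at 3 h against the control calls 359 of 11330 genes with an adjusted p (3.17%), 299 higher and 60 lower. Of these, 358 were also called here, all 358 in the same direction. Both rest on the same experiment, so this is not independent evidence. The fold changes in the authors' deposited table lie closest to the run without untreated replicate 1: the median absolute log2 difference over 11330 genes was 0.0038 against that run, 0.057 against the fit with both untreated libraries and 0.11 against the run without untreated replicate 2. Within 0.05 (log2) lay 100.0% of these genes for that run, 45.1% for the fit with both untreated libraries and 23.4% for the run without untreated replicate 2. The deposited fold changes thus match a fit without untreated replicate 1, though the sources used here do not name the control libraries. Its 359 calls and its median standard error of 0.37 (0.21 in the fit used here) are therefore not set against 1672 as if both rested on the same libraries.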

How the data were processed

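PRO-seq libraries of A549 cells were compared as read counts per gene that the authors deposited in 1 table of 58780 genes. The submitters' processing notes list featureCounts 2.0.1, DESeq2 and the build hg38. The strand setting, the counted feature (exons or whole genes) and the handling of multi-mapping reads are not given in the sources used here. Identifiers matched GENCODE release 29 (GRCh38), which supplied coordinates. Counts went into edgeR 4.0.16 under R 4.3.3, whose quasi-likelihood test was fitted to 14 libraries with 1 coefficient per group, TMM scaling and edgeR's expression filter (21910 genes, 7 residual degrees of freedom, coefficient of variation 0.073). SE is the fold change divided by the square root of its F. A second table that the authors deposited holds, per the file headers, log2 fold changes, their standard errors, p-values, the test's score and the gene's mean signal. Tested on simulated data in which 200 genes differed by 1 (log2), the fit called 61.5% of them, and 7 unchanged genes, among 21454 tested.

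Named are, among called genes whose groups do not overlap, the 4 largest rises and falls with a mean of 2 CPM, the 10 largest protein-coding rises and falls with a mean of 5 CPM and no shared exon, the 4 smallest p in each direction among these, and from each of 38 gene lists the 4 called genes with the smallest p. Some genes that meet the rule are not reported here. The members and lists were chosen with earlier results of these data known. CDKN1A, MDM2, INSIG2, DDIT4, HNRNPA1, DDX5, KLF4, KLF10, TSC22D3, ANGPTL4, NOXO1, the FP genes, RNA5-8SN2, the RNA5S genes and microRNA genes outside the repeats were named after their values were seen. No ubiquitin gene (6 tested) or mitochondrial gene (15 tested) was called. Alternatives were other scalings, no count filter, only the compared groups, a replicate block, trends on GC content and length, 1 library left out, genes sharing no exon, and DESeq2 1.42.0. Promoter and microRNA sequences came from RefSeq tables (GRCh38.p14); for miR-3687 none is printed.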

Additional observations from a re-analysis of the deposited data

Results flagged for a closer look

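Of the genes named, 112 differed between 3 h and 15 min of MS023 by edgeR's quasi-likelihood test of that difference (adjusted p under 0.05), which puts each of them here. Values are log2 differences, 3 h minus 15 min, from 2 libraries each. Under scaling by library size alone the median of all genes in this comparison moved to -0.16, so differences near that size depend on the scaling.

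In descending order, 75 of them were higher at 3 h. From MIR6724-1 to MIR3648-2 the log2 differences were 4.48 for MIR6724-1, 4.17 for MIR6724-2, 3.84 for MIR6724-4, 3.80 for FGF18, 3.78 for MIR6724-3 and 2.93 for MIR3648-2. From MIR3648-1 to AVEN the log2 differences were 2.84 for MIR3648-1, 2.79 for UBTD2, 2.74 for MIR4734, 2.59 for MIR212, 2.36 for MIR3687-2 and 2.34 for AVEN. From TMEM117 to ABCB10 the log2 differences were 2.33 for TMEM117, 2.31 for GRAMD2A, 2.17 for MIR3687-1, 2.15 for SRXN1, 1.92 for SMURF2 and 1.91 for ABCB10. From CRLS1 to MAML1 the log2 differences were 1.86 for CRLS1, 1.77 for NEK7, 1.72 for CDK5R1, 1.71 for COPRS, 1.70 for CEBPB and 1.56 for MAML1. From YAP1 to PHLDA3 the log2 differences were 1.52 for YAP1, 1.45 for MKNK2, 1.44 for ZNF664, 1.44 for INSIG2, 1.37 for CEBPA and 1.37 for PHLDA3. From HNRNPAB to BAG3 the log2 differences were 1.32 for HNRNPAB, 1.25 for SLBP, 1.24 for CEBPD, 1.19 for MIR663AHG, 1.14 for KLF15 and 1.11 for BAG3. From ZNF318 to SMAD7 the log2 differences were 1.09 for ZNF318, 1.05 for JUND, 0.99 for FTH1, 0.98 for SPRING1, 0.95 for KLF13 and 0.91 for SMAD7. From FKBP4 to KHDRBS1 the log2 differences were 0.90 for FKBP4, 0.89 for SRF, 0.88 for ACTB, 0.88 for IER5, 0.86 for HSPH1 and 0.85 for KHDRBS1. From SESN2 to UBE2S the log2 differences were 0.85 for SESN2, 0.81 for BTG2, 0.80 for CDKN1A, 0.77 for FOXA2, 0.77 for GCLC and 0.77 for UBE2S. From ZNF12 to FDXR the log2 differences were 0.70 for ZNF12, 0.66 for SRSF9, 0.66 for ZNF768, 0.65 for EPHX1, 0.64 for GDF15 and 0.62 for FDXR. From KLF4 to MDM2 the log2 differences were 0.62 for KLF4, 0.61 for PABPN1, 0.61 for MIR3178, 0.59 for INSIG1, 0.56 for KLF5 and 0.55 for MDM2. From UBTF to TEAD1 the log2 differences were 0.53 for UBTF, 0.53 for NFKBIZ, 0.47 for STIP1, 0.46 for MVD, 0.37 for CDK13 and 0.37 for TEAD1. From ISG20 to SCD the log2 differences were 0.35 for ISG20, 0.33 for DDIT4 and 0.32 for SCD.

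Lower at 3 h were 37, given from the most negative. From AC023137.1 to NLRP9 the log2 differences were -2.02 for AC023137.1, -1.69 for FP236383.1, -1.66 for FP671120.1, -1.65 for LINGO3, -1.48 for AC009093.6 and -1.41 for NLRP9. From LHFPL4 to NR4A1 the log2 differences were -1.36 for LHFPL4, -1.23 for HAPLN2, -1.13 for HRH3, -1.04 for FP671120.3, -1.03 for GOLGA6L4 and -0.95 for NR4A1. From PER1 to RPS23 the log2 differences were -0.91 for PER1, -0.88 for IL18, -0.85 for SGPP2, -0.84 for RNA5-8SN2, -0.73 for ANGPTL4 and -0.66 for RPS23. From TGFBI to TSC22D3 the log2 differences were -0.64 for TGFBI, -0.63 for PRMT5, -0.61 for MALAT1, -0.59 for PFKFB4, -0.57 for MNT and -0.55 for TSC22D3. From NFKB2 to PFKP the log2 differences were -0.53 for NFKB2, -0.49 for POLE, -0.45 for JUN, -0.45 for H1-5, -0.44 for MCM5 and -0.43 for PFKP. From DDX5 to KLF6 the log2 differences were -0.41 for DDX5, -0.40 for INTS1, -0.38 for LIF, -0.34 for TCOF1, -0.34 for SNHG1 and -0.31 for KLF6. For RPL32 it was -0.30.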

How the results depend on the processing

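More genes were higher than lower between MS023 3 h and untreated cells in every alternative run, but the count moved. Against 1672 genes called, scaling by library size alone gave 1001, genes sharing no exon 912 and DESeq2 908, and leaving out 1 library gave 834 to 1240. Between 3 h and 15 min of MS023, genes sharing no exon gave 1372, DESeq2 1421 and 1 library left out 1160 to 1789. Against GSK591 3 h, scaling by nuclear counts and DESeq2 gave 1 each, no count filter 47, only the compared groups 9, the replicate block 5, trends on GC content and length removed 7, the same with the replicate block 6, and 1 library left out 0 to 6. Between 15 min of MS023 and untreated cells, nuclear counts gave 196, no count filter 101, only the compared groups 176, trends removed 129, the same with the block 124, and 1 library left out 2 to 22. Fewer genes are tested where none shares an exon, and fewer libraries where 1 is left out. For the other changes the cause was not tested.

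PRMT3, near 0 and not called, was at -0.03 under nuclear scaling, under trends removed with and without the block, and without untreated replicate 2 (its highest was 0.09, without untreated replicate 1). FP671120.3 was at -0.05 and RNA5-8SN2 at -0.02 without MS023 3 h replicate 1, and RNA5-8SN2 at 0.58 without replicate 2. FP671120.3 passed with no count filter (0.37) and without MS023 3 h replicate 2 (0.73). Of 138 genes followed, all 138 kept direction and call with DESeq2's size factors, with only the compared groups and with the replicate block. DESeq2 lost 29 calls and scaling by library size alone 33. With the replicate block 1758 genes were called. Same-numbered libraries did not deviate together (correlation -0.0274 for untreated and MS023 3 h, -0.0703 to 0.1 over 21 pairs of groups). With 2 libraries a group, this cannot show whether same-numbered libraries were prepared together. Scaling by library size alone moved the median of all genes to -0.16 between 3 h and 15 min. Depth and 2 libraries a group limit what can be called: genes of few reads need large changes to pass.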
